A study of Homo sapiens with 4 samples.

Results

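The replication-dependent histone genes examined here are the protein-coding members of the clustered HIST1, HIST2, HIST3 and HIST4 gene families. They were chosen by gene symbol and number 70: 6 encoding H1, 17 encoding H2A, 18 encoding H2B, 14 encoding H3 and 15 encoding H4. Among the 60564 genes in the count files 68 of them have an identifier; H2AC18 and H2AC19 have no value here. The RNA came from Elf1 cells, a naïve human embryonic stem cell (ESC) line derived from an 8-cell embryo. The study describes 2-D culture on mouse embryonic feeders and a move to Matrigel without feeders before encapsulation. It does not say on which of these the sequenced 2-D grown cells were kept. The 3-D grown cells had been enclosed as single cells in a self-assembling PEG-8-SH/PEG-8-Acr scaffold, a synthetic hydrogel, and grown in it for 21 days. Each condition had 2 libraries, described by the study as independent biological replicates. The culture medium held FGF2, LIF, the GSK3 inhibitor CHIR99021 and a MEK inhibitor. A single unmodified line was used, so the values describe that line alone.

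Histones are the proteins around which DNA is wound. A nucleosome core holds a pair each of H2A, H2B, H3 and H4, and a linker histone, H1, binds where DNA enters and leaves it. The clustered histone genes are transcribed mainly in S phase, when newly made DNA must be packaged; they mostly lack introns, and their mRNAs end in a conserved hairpin, bound by the protein SLBP, in place of a poly(A) tail. The libraries were made from total RNA after removal of ribosomal RNA, with no selection for poly(A), so these mRNAs could be sequenced.

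The hairpin was looked for in the hg38 genome as a stem of 6 bases around a loop of 4 bases, with at most 1 mismatch in the stem, within 200 bases of the stop codon. The hairpin also had to begin with GG, end with CC and have a loop beginning with TT, so these letters were set by the search. It was found in 67 of the 70 genes, beginning 22 to 67 bases after the stop codon. It is shown because its letters separated 1 class from the rest. Capitals mark the stem and lower case the loop.
H2AC12 (also the letters of 40 genes in all, 0 of them H4; chr6:27147546-27147561, + strand): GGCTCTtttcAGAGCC
H2BC7 (10 genes in all, 0 of them H4; chr6:26199968-26199983, + strand): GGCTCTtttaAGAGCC
H4C2 (10 genes in all, every one H4; chr6:26026901-26026916, - strand): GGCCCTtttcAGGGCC
H4C15 (4 genes in all, every one H4; chr1:149860769-149860784, - strand): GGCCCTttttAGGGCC
The 14 H4 genes with a hairpin match all had one of the last pair of sequences, and no gene of another class had either. The H2A genes H2AC11, H2AC15 and H2AC20 each had a hairpin of their own letters. No match was found in H2BC10, H3C6 and H4C13, which says only that these letters are not in that window.

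Promoter windows (RefSeq, GRCh38.p14, 250 bases before to 50 after the annotated start) were available for 65 of the 70 genes. Each was searched on both strands for 6 short motifs known from histone promoters. CCAAT, the letters of the CCAAT box, occurred in 55 of 65 windows, but in 3 of 13 H4 windows, against 34.6% of all 35116 windows of that length. TTTGCAT, a core of the octamer bound by POU2F1, occurred in 11 of 16 H2A, 14 of 18 H2B, 1 of 12 H3, 0 of 13 H4 and 0 of 6 H1 windows, against 4.46% of all windows. AAACACA, the H1 box, occurred in 6 of 6 H1 windows and in 3 of the others, against 5.64%. GGTCCG, a core of the H4 site II element, occurred in 12 of 13 H4 windows and in 3 of the others, against 11.3%. TATAAA occurred in 43 of 65 windows, against 11.5%, and TTTCGCG, letters of an E2F site, in 13 of 65, against 1.32%. None of the 6 motifs contains another. Many H2A and H2B genes are close neighbours that point away from each other, and the windows of such a pair overlap. The same letters can then be counted for both genes, so the H2A and H2B numbers are not independent. A match to letters is a description and not a shown binding site.

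The 4 windows below are shown because their genes recur in the results: a head-to-head H2A and H2B pair whose members moved apart, the H4 gene with the lowest adjusted p and the called H1 gene. Capitals mark matches to any of the 6 motifs on either strand. The H2AC8 and H2BC8 windows share 268 bases of the same DNA, read from opposite strands.
H2AC8 (chr6:26216671-26216970, + strand): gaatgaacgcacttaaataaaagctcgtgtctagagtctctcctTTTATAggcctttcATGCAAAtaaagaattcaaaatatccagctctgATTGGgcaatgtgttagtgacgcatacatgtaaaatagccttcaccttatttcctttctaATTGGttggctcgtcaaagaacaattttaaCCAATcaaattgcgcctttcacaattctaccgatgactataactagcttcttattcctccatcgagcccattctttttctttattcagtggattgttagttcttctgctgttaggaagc
H2BC8 (chr6:26216639-26216938, - strand): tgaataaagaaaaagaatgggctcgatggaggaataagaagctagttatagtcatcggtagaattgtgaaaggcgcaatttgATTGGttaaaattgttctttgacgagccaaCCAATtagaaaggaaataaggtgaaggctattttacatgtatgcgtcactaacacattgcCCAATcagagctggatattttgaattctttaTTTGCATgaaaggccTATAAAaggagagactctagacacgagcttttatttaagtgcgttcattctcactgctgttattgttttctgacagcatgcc
H4C2 (chr6:26027234-26027533, - strand): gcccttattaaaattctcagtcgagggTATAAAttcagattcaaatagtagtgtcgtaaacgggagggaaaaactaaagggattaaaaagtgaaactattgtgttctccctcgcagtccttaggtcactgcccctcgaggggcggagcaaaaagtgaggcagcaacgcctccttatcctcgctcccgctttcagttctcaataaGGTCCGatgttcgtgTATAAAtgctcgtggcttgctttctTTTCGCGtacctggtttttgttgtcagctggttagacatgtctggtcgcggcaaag
H1-4 (chr6:26156079-26156378, + strand): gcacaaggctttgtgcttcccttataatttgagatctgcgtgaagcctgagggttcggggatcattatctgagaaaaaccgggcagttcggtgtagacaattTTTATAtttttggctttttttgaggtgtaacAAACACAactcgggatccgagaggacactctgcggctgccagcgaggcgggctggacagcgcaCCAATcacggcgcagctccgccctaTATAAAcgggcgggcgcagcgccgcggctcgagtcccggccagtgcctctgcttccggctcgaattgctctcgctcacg

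The 4 libraries held 18276147 to 33833778 counts, fewer in 3-D than in 2-D. Mitochondrially encoded genes took 5.10% and 5.30% of counts in 2-D, and 8.33% and 8.50% in 3-D. Of the 6 pluripotency markers checked, including POU5F1, SOX2 and NANOG, all were present and 0 of 6 differed by edgeR's quasi-likelihood test (3 at an unadjusted p below 0.05), by its likelihood ratio test or by DESeq2. Of the 8 naïve markers 7 were tested and KLF5 was called higher, as were SFRP2 and THY1 of 6 primed markers. KLF17 was low, at 0.465 to 1.07 CPM (counts scaled to a common library total), and DPPA5 had 0 to 4 counts in a library. The tested naïve markers summed to 264 to 279 CPM in a library. The primed markers summed to 1245 to 1274 CPM, of which CD24 gave 868 to 906. Among all tested genes 7.90% were called by the quasi-likelihood test, and 15.1% of those averaging 10 CPM or more. Fibroblast markers summed to 458 and 466 CPM in 2-D and 468 and 512 CPM in 3-D. Of the 6 tested, 3 (COL1A1, COL3A1 and POSTN) were higher in 3-D. COL1A2 was the highest in level, at 325 and 316 CPM in 2-D and 301 and 325 CPM in 3-D, and was not called. DCN and LUM, also in the list, had at most 17 counts in any library and were not tested. The tested endoderm, mesoderm and neural ectoderm markers summed to at most 7.59, 60.2 and 1.004 CPM in a library. Of these 6 genes 0 passed the quasi-likelihood test in edgeR. HAND1 and GATA6, both at most 2.34 CPM, were among the 3 at an unadjusted p below 0.05 in that test. The likelihood ratio test in edgeR called 1 endoderm and 1 mesoderm gene. DESeq2 called 0 but gave 4 of the 6 no adjusted p. All 6 had a positive log2 fold change, from 0.06 for MIXL1 to 0.98 for HAND1 and 1.0007 for GATA6. For GATA6, HAND1 and TBXT both 3-D libraries lay above both 2-D libraries. For GATA4, MIXL1 and PAX6 the conditions overlapped. The part of these genes in the histone results was not tested.

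Histone mRNA as a whole took a like share of each library, while its composition differed between conditions. The 68 genes together held 0.731% and 0.717% of all counts in 2-D grown cells; in 3-D grown cells it was 0.720% and 0.698%, and the conditions overlapped. By contrast, H2A genes were mostly higher in 3-D grown cells and H4 genes mostly lower. Of 61 tested genes, 15 were higher and 12 lower in 3-D by edgeR's quasi-likelihood test at a Benjamini-Hochberg adjusted p below 0.05; among all 22555 tested genes 7.90% were called, 4.54% higher and 3.36% lower. Over all genes DESeq2 called 509 higher and 285 lower of the 9429 to which it gave an adjusted p. Of the histone genes 57 had one: 5 H1, 12 H2A, 17 H2B, 10 H3 and 13 H4 genes. The likelihood ratio test in edgeR called 651 higher and 488 lower of 22555. Counts given elsewhere at an unadjusted p below 0.05 have no such share over all genes beside them. Histone genes are more strongly expressed than most genes: 58 of the 61 averaged 10 CPM or more, and of all genes at that level 15.1% were called. The changes were small, from 0.633 times to 1.37 times the 2-D level. Their median log2 fold change was 0.04, beside 0.00 for all tested genes. Scaling by total counts alone, which puts the median of all genes at -0.06, gave 13 higher and 19 lower and turned the histone median to -0.03. Over all 22555 tested genes that scaling called 514 higher and 1879 lower. As these are bulk libraries, fewer cells with an mRNA and less of it in each cell cannot be told apart.

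**Figure D1:**
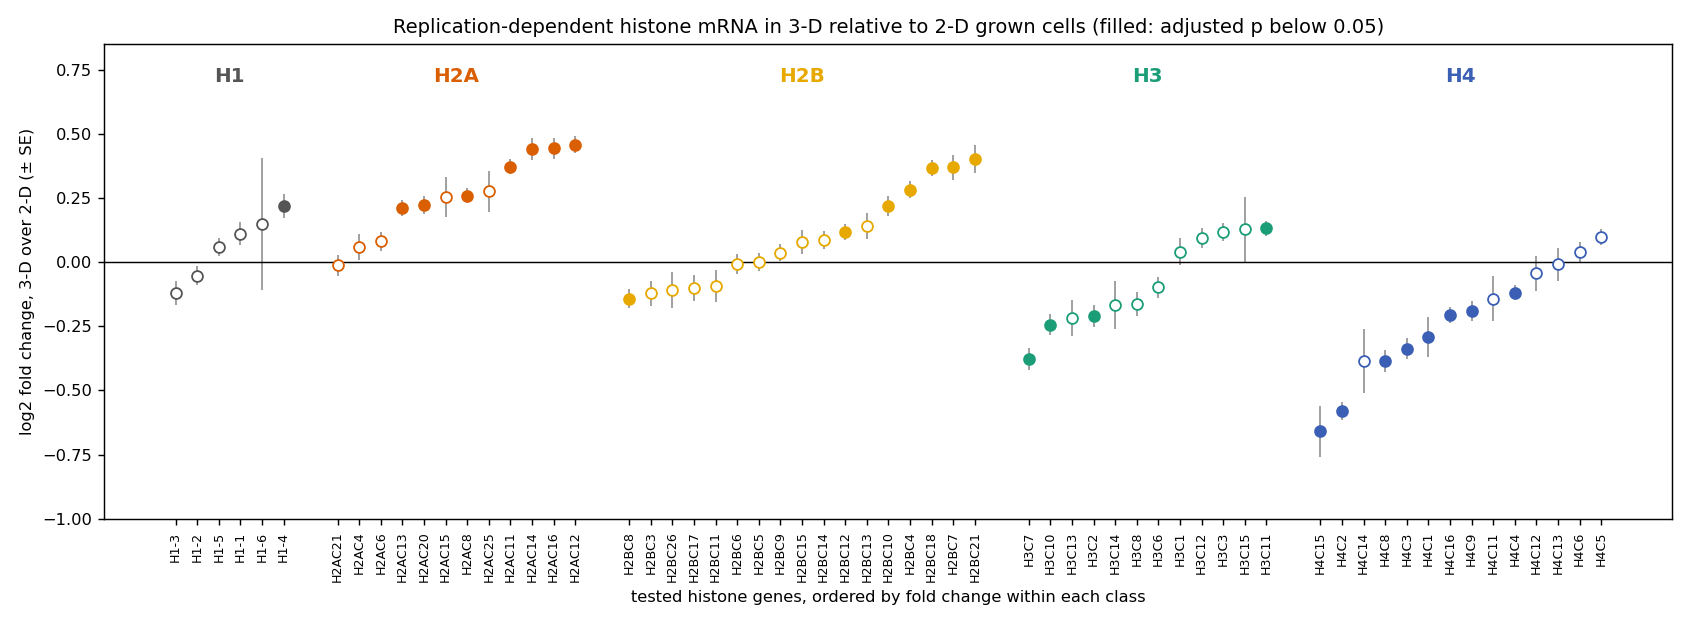
Log2 fold change (3-D over 2-D, vertical axis, bars ± SE) of the 61 tested histone genes, ordered within each class along the horizontal axis; filled points had an adjusted p below 0.05 (edgeR). Of the H2A genes, 11 of 12 lie above 0, and of the H4 genes 12 of 14 lie below it.

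The 2 conditions' libraries did not overlap for 47 of the 61 genes, 26 higher and 21 lower in 3-D; the share without overlap among all tested genes was 50.5%. The 7 remaining genes with an identifier were too low to be tested, with 0 to 10 counts in a library. These were H2AC1 and H2BC1, a neighbouring pair known from the testis, H2AC7, H2AC17, H3C4, H3-4 and H4C7. Their low counts have a limit: 85.3% of H2AC7, 71.0% of H2AC17 and 96.6% of H3C4 exon sequence is also part of another gene in GENCODE 44. The counting used GENCODE 30, and whether reads there were left unassigned was not tested.

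The class totals differed in direction. Summed over its genes on the scale of CPM after TMM scaling, H2A without H2AC18 and H2AC19 reached 929 and 917 in 2-D against 1095 and 1127 in 3-D. H4 summed to 1531 and 1488 in 2-D and to 1383 and 1306 in 3-D. The libraries of the conditions were apart for both classes, H2A higher and H4 lower in 3-D. H2B gave 2082 and 2020 against 2296 and 2150, also without overlap, but as a share of all counts it overlapped, at 0.212% and 0.207% against 0.223% and 0.211%. H3 gave 974 and 951 against 880 and 935, and H1 gave 1666 and 1634 against 1754 and 1600. H3 was thus a little lower in both 3-D libraries, by less than its 3-D libraries differed from each other, and the H1 libraries overlapped.

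**Figure D2:**
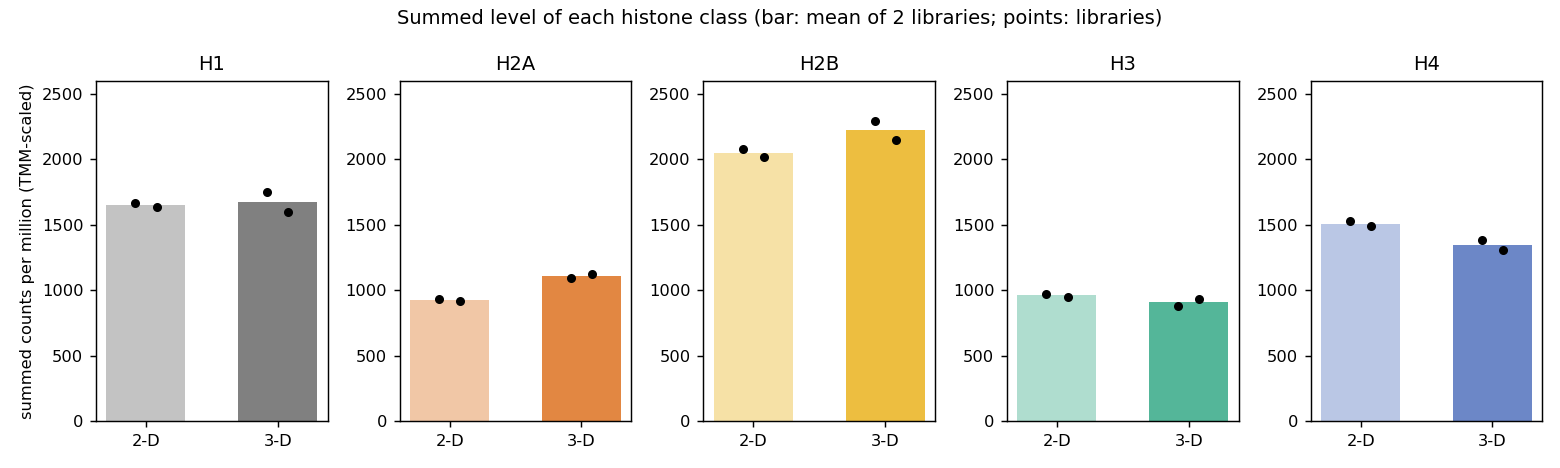
Summed CPM after TMM scaling (vertical axis) of the genes of each histone class, by culture condition; bars are means of 2 libraries and points the libraries. The H2A means are 923 in 2-D and 1111 in 3-D and the H4 means 1510 and 1345, while the H1 libraries overlap.

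Ratios of classes within a library do not depend on scaling between libraries. The H2A to H4 ratio of summed counts was 0.607 and 0.616 in 2-D and 0.792 and 0.863 in 3-D, a mean 35.3% higher. The H2B to H4 ratio was 1.36 and 1.36 in 2-D and 1.66 and 1.65 in 3-D, 21.6% higher. H1 to H4 was 1.09 and 1.10 in 2-D and 1.27 and 1.22 in 3-D. In these 3 ratios the 3-D libraries lay above both 2-D libraries by more than either pair differed within itself. H3 to H4 was 0.636 and 0.639 in 2-D and 0.636 and 0.716 in 3-D, so the conditions overlapped. No test is given for these ratios.

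**Figure D3:**
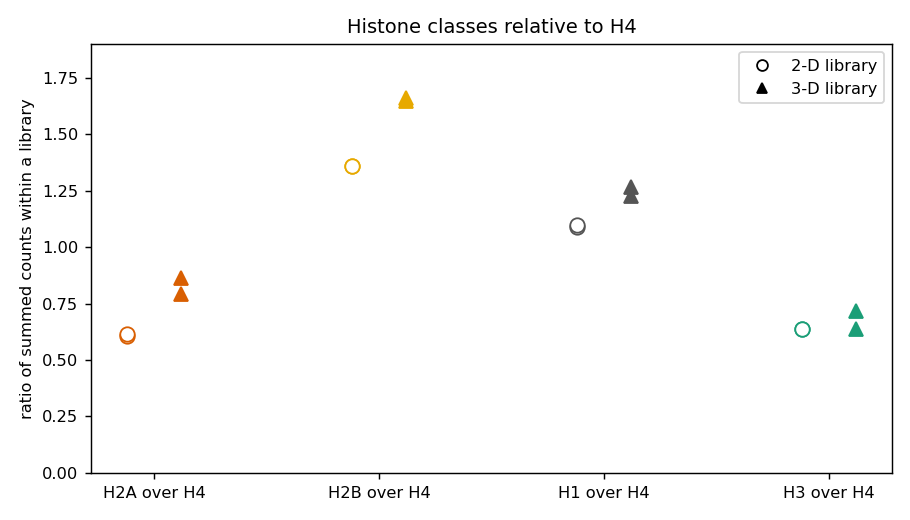
Ratio of the summed counts of H2A, H2B, H1 and H3 genes to those of H4 genes (vertical axis) in each of the 4 libraries; open circles are 2-D and filled triangles 3-D libraries. The H2A to H4 ratio is 0.607 and 0.616 in 2-D and 0.792 and 0.863 in 3-D, and the H3 to H4 ratios overlap.

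H2A, which pairs with H2B on the outer faces of the nucleosome core, was mostly higher in 3-D. Of 12 tested H2A genes 7 were called higher and 0 lower (10 higher and 0 lower at an unadjusted p below 0.05; 7 higher and 0 lower by DESeq2 and by the likelihood ratio test), with a median log2 fold change of 0.26. H2AC12 (chr6:27147106-27147562) measured 79.5 and 80.9 CPM in 2-D and 112 and 108 CPM in 3-D. Its log2 fold change of 0.46 ± 0.03 (SE, adjusted p = 7.2e-06, edgeR) was the highest of any histone gene. H2AC11 (chr6:27133043-27133535) measured 116 and 115 CPM in 2-D and 148 and 151 CPM in 3-D (log2 fold change 0.37 ± 0.03, adjusted p = 1.4e-05, edgeR). For both genes the 3-D libraries lay far above the 2-D pair. H2AC16 (chr6:27865317-27865798) went from 53.8 and 53.1 to 70.7 and 74.7 CPM, a log2 fold change of 0.44 (adjusted p = 4.6e-05, edgeR).

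H2AC8 (chr6:26216921-26217437), the H2A gene with the highest level per length and 20.3% of H2A counts in 2-D, measured 188 and 186 CPM in 2-D and 224 and 225 CPM in 3-D (log2 fold change 0.26, adjusted p = 0.00023, edgeR). H2AC20, in the HIST2 cluster of chromosome 1, measured 68.6 and 68.1 against 79.1 and 80.4 CPM (0.22 on the log2 scale). H2AC13 and H2AC14 had log2 fold changes of 0.21 and 0.44 and were also called, but 52.9% and 56.0% of their 150-base windows occur letter for letter elsewhere in the genome, so reads may have been shared with copies. H2AC15 and H2AC25 had 3-D libraries above both 2-D libraries, with log2 fold changes of 0.25 and 0.28 that missed the threshold (adjusted p = 0.071 and 0.055, edgeR). H2AC4, H2AC6 and H2AC21 had values of 0.06, 0.08 and -0.01. H2AC6 measured 96.9 and 93.8 CPM in 2-D and 98.3 and 104 CPM in 3-D, without overlap, and did not pass (adjusted p = 0.21, edgeR).

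H4, which with H3 forms the inner tetramer of the nucleosome, went the other way. Of 14 tested H4 genes 8 were lower in 3-D and 0 higher (9 lower and 1 higher at an unadjusted p below 0.05; 6 lower and 0 higher by DESeq2 and by the likelihood ratio test), with a median log2 fold change of -0.20. H4C2 (chr6:26026896-26027283) measured 144 and 136 CPM in 2-D and 92.7 and 94.7 CPM in 3-D, a log2 fold change of -0.58 ± 0.04 (SE, adjusted p = 1.5e-06, edgeR). H4C3 (chr6:26103933-26104337) went from 206 and 199 to 167 and 153 CPM (-0.34 on the log2 scale), and H4C8 (chr6:26277609-26285638) from 143 and 140 to 114 and 103 CPM (-0.38). In all of these each 3-D library lay below both 2-D libraries. For H4C8, 13.3% of exon sequence overlaps a gene annotated on the other strand, and the strand setting of the counting is not given.

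H4C16, the lone gene of the HIST4 family, on chromosome 12 and far from the other clusters, measured 111 and 112 CPM in 2-D and 97.2 and 96.4 CPM in 3-D (log2 fold change -0.21, adjusted p = 0.0016, edgeR). H4C9, H4C4 and H4C1 were also called, at -0.19, -0.12 and -0.29. H4C4 lost its call under 7 of the 16 alternatives chosen at the start and H4C1 under 5, DESeq2 and the likelihood ratio test among them for both. The encoded proteins are the same for nearly all H4 genes, but their mRNAs did not move alike. H4C6, the highest of the single-exon H4 genes per length, had 517 CPM per kb in 2-D and 531 in 3-D, and its libraries overlapped. H4C5 measured 190 and 187 CPM in 2-D and 202 and 203 in 3-D (log2 fold change 0.10, adjusted p = 0.065, edgeR). As a result H4C5 and H4C6 supplied 12.5% and 13.7% of H4 counts in 2-D and 15.05% and 15.8% in 3-D. The lowest fold change belonged to H4C15 in the HIST2 cluster, 19.9 ± 1.15 CPM in 2-D and 12.6 ± 1.92 CPM in 3-D (SD, n = 2; -0.66, adjusted p = 0.0016, edgeR). Every 150-base window of H4C15 and of its near-identical copy H4C14 also occurs elsewhere, so the pair cannot be separated. Summed, they gave -0.58 (adjusted p = 0.0018, edgeR). H4C11 and H4C12, with 88.8% and 89.5% of windows repeated, had values of -0.14 and -0.04.

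H2B genes were split. Of 17 tested, 6 were higher and 1 lower (8 higher and 2 lower at an unadjusted p below 0.05; 5 higher and 0 lower by DESeq2 and by the likelihood ratio test), with a median log2 fold change of 0.08. H2BC21 (chr1:149884459-149886682) measured 141 and 135 CPM in 2-D and 195 and 168 CPM in 3-D (log2 fold change 0.40 ± 0.05, adjusted p = 0.00077, edgeR). H2BC7 (chr6:26199516-26199988) went from 91.8 and 104 to 128 and 124 CPM and H2BC18, on chromosome 1, from 176 and 169 to 221 and 225 CPM, each a log2 fold change of 0.37. In these 3 genes both 3-D libraries lay above both 2-D libraries. H2BC18 has 27.8% of its windows repeated elsewhere, and 9.84% of its exon sequence overlaps a gene annotated on the other strand. H2BC4, H2BC10 and H2BC12 had called rises of 0.28, 0.22 and 0.12. For H2BC4, 30.9% of exon sequence overlaps genes annotated on the other strand, and the strand setting of the counting is not given. H2BC8 was the called gene that fell, from 166 and 165 to 156 and 144 CPM (-0.14, adjusted p = 0.035, edgeR). H2BC8 and H2BC12 each lost their call under 8 of the 16 alternatives, including DESeq2, the likelihood ratio test and 3 of the 4 fits without 1 library. H2BC9, which had the highest level per length of the single-exon H2B genes, was at 188 and 178 CPM in 2-D and 189 and 186 in 3-D. H2BC26 differed by -0.11, which did not pass.

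H3 genes differed in both directions. Of 12 tested, 3 were lower and 1 higher (6 lower and 3 higher at an unadjusted p below 0.05; 3 lower and 0 higher by DESeq2 and by the likelihood ratio test), with a median log2 fold change of -0.13. H3C7 (chr6:26250142-26250635) measured 104 and 96.0 CPM in 2-D and 78.5 and 75.6 CPM in 3-D (log2 fold change -0.38 ± 0.04, adjusted p = 0.00021, edgeR). H3C2 (chr6:26031589-26032099), the highest H3 gene per length, went from 193 and 184 to 155 and 170 CPM (-0.21, adjusted p = 0.0080, edgeR). H3C10 measured 65.1 and 62.8 against 53.9 and 54.2 CPM (-0.24). The gene called higher was H3C11, at 121 and 124 against 133 and 135 CPM (0.13, adjusted p = 0.018, edgeR). It lost its call under 6 of the 16 alternatives, among them DESeq2, the likelihood ratio test and the fits without either 2-D library. H3C8 and H3C13 had values of -0.16 and -0.22 that did not pass (adjusted p = 0.054 and 0.079, edgeR). H3C14 and H3C15, whose windows all occur elsewhere too, had values of -0.17 and 0.13, neither called. H3C6, which like H2BC10 and H4C13 had no hairpin match, differed by -0.10 and was not called.

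Among the linker histones, 1 of 6 genes was called higher and 0 lower (2 higher and 1 lower at an unadjusted p below 0.05; 1 higher and 0 lower by DESeq2 and by the likelihood ratio test). This was H1-4 (chr6:26156329-26157115), at 290 and 279 CPM in 2-D and 351 and 311 CPM in 3-D (log2 fold change 0.22 ± 0.05, adjusted p = 0.013, edgeR). Its fold change was 0.13 without the first 3-D library and 0.30 without the second, and it was called in both fits. H1-5 was the highest histone gene per length, at 661 CPM per kb in 2-D and 689 in 3-D, and was not called (0.06). H1-3 measured 413 and 409 against 401 and 355 CPM (-0.12, adjusted p = 0.15, edgeR). H1-1 and H1-2 had values of 0.11 and -0.05. H1-6, a testis linker histone, was near 1.2 to 1.3 CPM in every library. H1-4 thus supplied 17.2% of H1 counts in 2-D and 19.7% in 3-D, and H1-3 24.9% and 22.5%.

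**Figure D4:**
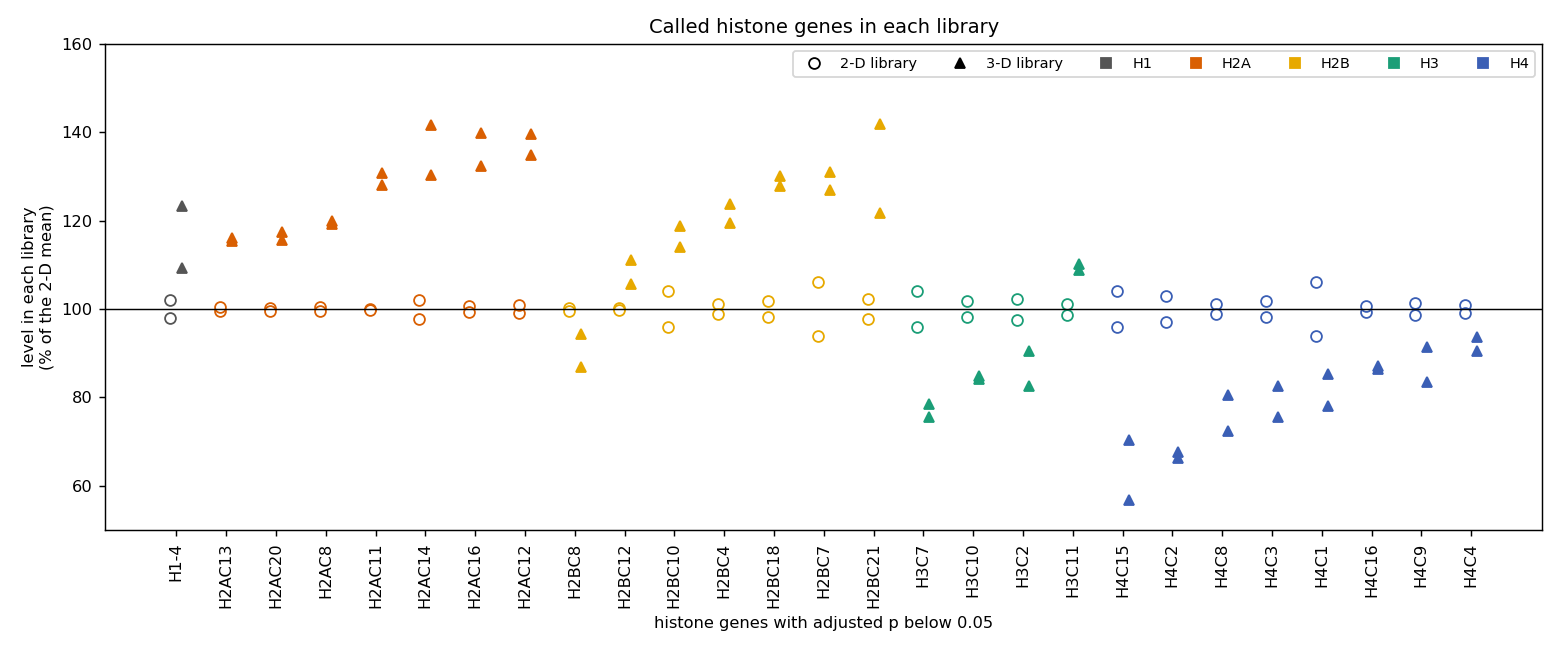
Level of the 27 called histone genes in each library as a percentage of the gene's 2-D mean (vertical axis), grouped by class along the horizontal axis; open circles are 2-D and filled triangles 3-D libraries. For each gene both 3-D libraries lie on the same side of both 2-D libraries, and the 8 called H4 genes all lie below 100%.

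Neighbouring genes often differed in direction or size of change. Most H2A and H2B genes lie head to head, pointing away from each other with a short stretch of DNA between them. In the annotation 12 such pairs were found with starts within 1000 bases, and both genes were tested in 9, whose gaps were 169 to 250 bases. The H2A gene had the more positive fold change in 7 of the 9 pairs, and the median difference was 0.34 on the log2 scale. Counts within a library give the same comparison free of scaling. H2AC8 to H2BC8, whose windows are printed above, had ratios of 1.13 and 1.13 in 2-D and 1.43 and 1.56 in 3-D. H2AC11 to H2BC11 had 1.16 and 1.22 against 1.49 and 1.83, and H2AC12 to H2BC12 had 0.523 and 0.534 against 0.663 and 0.675. The ratio was higher in both 3-D libraries in 6 pairs, lower in both in 2 and overlapping in 1 (H2AC13 and H2BC13). With 2 libraries a condition such separation is common: the levels of 50.5% of all tested genes did not overlap. A share for ratios of other gene pairs is not given here. The pairs with the lower ratio were H2AC6 with H2BC4, at 0.712 and 0.705 against 0.590 and 0.644, and H2AC20 with H2BC21, at 0.488 and 0.507 against 0.405 and 0.480. These counts are a description without a test.

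**Figure D5:**
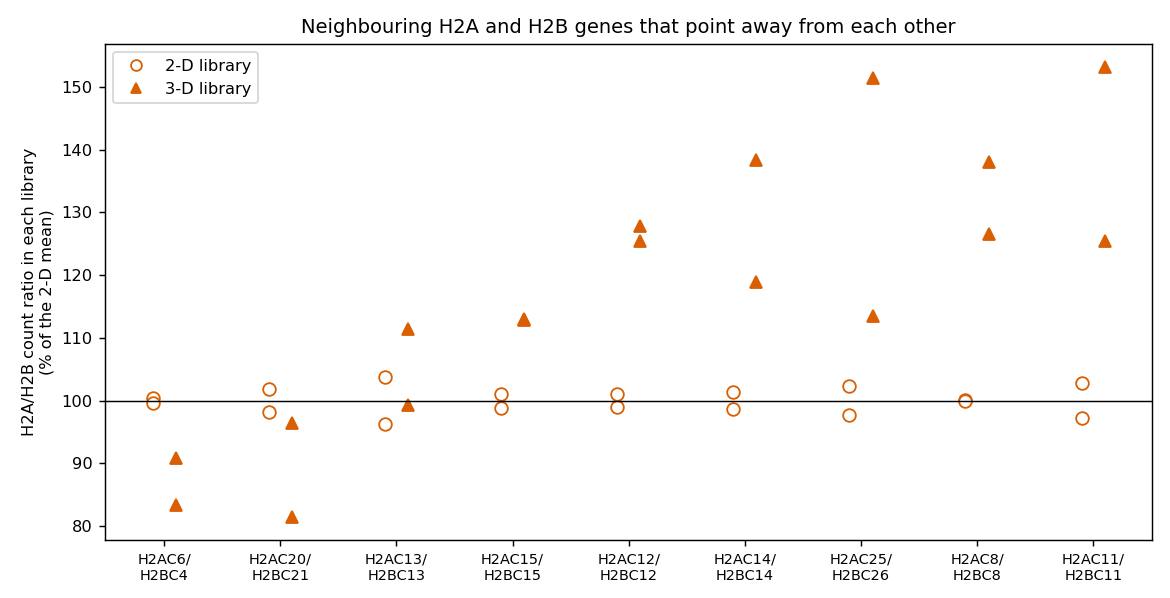
Ratio of H2A to H2B counts in each library as a percentage of its 2-D mean (vertical axis) for 9 head-to-head gene pairs (horizontal axis); open circles are 2-D and filled triangles 3-D libraries. In 6 pairs both 3-D libraries lie above both 2-D libraries, and in 2 pairs both lie below.

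The HIST1 genes lie in 2 groups on chromosome 6 (hg38, GENCODE 44), chr6:25723397-26285638 with 34 genes and chr6:27125897-27893891 with 21. In the first group 5 of 29 tested genes were higher and 8 lower, and in the second 7 of 20 were higher and 2 lower. H2A genes were called higher in 1 of 3 in the first group and in 5 of 6 in the second. H4 genes were called lower in 5 of 7 in the first and in 1 of 4 in the second, where H4C11 and H4C12 are largely repeated sequence. The smaller HIST2 cluster (chr1:149782689-149887965) had 3 of 9 tested genes higher and 1 lower. The difference between groups was not tested. By hairpin, the tested genes with the H4C2 letters had 6 of 9 lower and a median of -0.21, and those with the H4C15 letters 2 of 4 lower and -0.29. Those with the H2AC12 letters had 9 higher and 4 lower of 33 and a median of 0.08, and those with the H2BC7 letters 3 higher and 0 lower of 9 and a median of 0.11. The hairpin letters and the H4 class coincide, so their parts cannot be told apart. GC content had a Pearson correlation with the log2 fold change of 0.20 over the 61 genes, 0.46 over the 12 H2A genes and 0.48 over the 14 H4 genes, which all share the same 4 libraries.

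Restricting the account to the 44 tested genes with no repeated window and no exon shared with another gene, a choice made after seeing the data, left 11 higher and 10 lower. Of these, 5 of 8 H2A genes were higher with a median log2 fold change of 0.27, and 6 of 9 H4 genes were lower with a median of -0.19. Single libraries mattered more for the totals. Without the second 3-D library 24 genes were higher and 14 lower, with 3 H4 genes among the higher and 6 H3 genes, not 3, among the lower. Without the first 3-D library 20 were higher and 19 lower, 5 of the lower ones H2B genes where 1 was called with all libraries. Over all tested genes the calls also rose, from 1024 higher and 758 lower to 1421 and 985 without the second 3-D library and to 1468 and 1175 without the first. The median log2 fold changes moved as well. Without the first 3-D library they were 0.03 for H1, 0.02 for H2B, -0.05 for H3 and 0.01 for all histone genes, and without the second 0.12, 0.13, -0.20 and 0.05. The H2B median was 0.03 without the second 2-D library. Leaving out each library gave 0.23 to 0.28 for H2A and -0.23 to -0.19 for H4. H2A kept 0 lower calls under every setting tried, and H4 kept 6 to 9 lower calls.

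Genes that drive and process histone transcription were called in either direction. Of 28 genes in this list, all tested, 2 were higher and 2 lower, that is 14.3%, beside 7.90% of all tested genes and 15.1% of those at 10 CPM or more, and their median log2 fold change was -0.01. SLBP, which binds the hairpin, was at 51.5 and 51.3 CPM in 2-D and 51.3 and 50.3 in 3-D (-0.02, adjusted p = 0.89, edgeR). NPAT, the coactivator of histone loci, was at 70.7 and 67.2 against 65.6 and 68.6 CPM (-0.04, adjusted p = 0.64, edgeR). The 2-D and 3-D libraries thus lay close together for both. SRRT, a cap-complex partner also called ARS2, was higher (174 and 174 against 201 and 201 CPM, 0.21), as was SYMPK, the scaffold of the 3′ cleavage complex (0.19). SNRPE and SNRPB, Sm proteins shared by spliceosomal and U7 particles, were lower (-0.35 and -0.20). POU2F1, which binds the octamer letters, had a value of -0.08 that did not pass (adjusted p = 0.16, edgeR). Without the first 3-D library 4 genes of this list were lower, and without the second 2-D library 1 was higher.

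S phase genes differed in both directions. Of 40 tested, 4 were higher and 4 lower, so 8 of 40 were called (all tested genes 7.90%, those at 10 CPM or more 15.1%), and their median log2 fold change was 0.04. PCNA, the sliding clamp of replication, was at 185 and 186 CPM in 2-D and 182 and 191 in 3-D, and RRM2, a ribonucleotide reductase subunit, at 255.7 and 259 against 258 and 264. Neither was called. RFC1 of the clamp loader, UHRF1 of maintenance methylation, MCM5 of the replicative helicase and the checkpoint mediator CLSPN had log2 fold changes of 0.18, 0.16, 0.14 and 0.12 and were called higher. RPA3 and RPA1 of the single-strand binding complex and the nucleotide enzymes DUT and TYMS were lower (-0.35, -0.14, -0.31 and -0.11). DESeq2 and the likelihood ratio test each called 1 gene higher and 2 lower. Without the first 3-D library 8 were higher, and without either 2-D library 1 was. The fraction of cells in S phase was not measured, and its part in the histone values was not tested.

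The histone variants outside the clustered families, most of whose mRNAs carry poly(A) tails, were also mixed. Of 17 in the list 12 were tested, and 1 was higher and 3 lower, 33.3% called beside 7.90% of all tested genes and 15.1% of those at 10 CPM or more. H2AX, the variant phosphorylated at DNA breaks, which is also known to make a hairpin-ended mRNA in S phase, rose from 60.1 and 61.1 to 73.9 and 75.1 CPM (0.30, adjusted p = 0.00044, edgeR). H2AZ1 and H2AZ2, encoding the 2 H2A.Z proteins found at promoters, fell (-0.28 and -0.22), H2AZ1 from 365 and 369 to 309 and 297 CPM. The linker variant H1-10 was also lower (-0.19). H3-3A and H3-3B, which both encode H3.3, had values of -0.02 and -0.08 and were not called.

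Of 27 histone chaperone and chromatin assembly genes, all tested, 6 were higher and 1 lower, that is 25.9% (all tested genes 7.90%, those at 10 CPM or more 15.1%), and their median log2 fold change was 0.04. NASP, a carrier of soluble H3 and H4, measured 680 and 661 CPM in 2-D and 794 and 727 in 3-D (0.18, adjusted p = 0.014, edgeR). NPM1, nucleophosmin, rose from 1875 and 1857 to 2232 and 2085 CPM (0.21). SUPT16H and SSRP1, both subunits of the FACT complex, were higher by 0.13 and 0.14, the elongation factor SUPT6H by 0.19 and CABIN1, of the HIRA complex, by 0.17. The gene that fell was DAXX, a chaperone of H3.3, at a low level (1.92 and 2.30 against 0.681 and 0.614 CPM, -1.69, adjusted p = 0.0026, edgeR). DESeq2 gave it no adjusted p. Repeated sequence was counted for the clustered histone genes alone, and the multi-mapping setting is not given. Whether reads of DAXX (chr6:33318558-33323016) were shared with copies elsewhere was not tested. CHAF1A, the large subunit of chromatin assembly factor 1, had a value of 0.14 that did not pass (adjusted p = 0.067, edgeR). Without the second 2-D library 3 genes of this list were higher, and without the first 3-D library 3 were lower.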

How the data were processed

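RNA-seq was performed on 2 libraries each of 2-D and 3-D grown Elf1 cells, from ribosomal RNA-depleted total RNA. The authors trimmed reads with Trim Galore 0.6.3, mapped them to hg38 with HISAT2 2.1.0 and counted them per gene with featureCounts 1.6.4 on GENCODE 30; the deposited raw counts per gene were used here. Strand and multi-mapping settings are not given in the sources used here. A deposited normalized matrix, which also holds the authors' comparison, was not used.

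Symbols and exons came from GENCODE 44 (60295 of 60564 identifiers matched; the rest held 0.121% to 0.123% of counts and stayed in the totals). Members and gene lists were chosen with earlier results of these data known. Counts were filtered with filterByExpr, scaled by TMM and tested with edgeR 4.0.16 (R 4.3.3) by the quasi-likelihood test of 3-D against 2-D, all 4 libraries, no covariate, with Benjamini-Hochberg adjustment over 22555 genes at 0.05. CPM are TMM-scaled; per kb means per kilobase of merged exons. The common biological coefficient of variation was 5.10%, and p-values rest on 2 libraries a condition. Libraries of a condition differed beyond sampling noise (chi-square per degree of freedom 2.45 and 4.39). Same-numbered libraries did not deviate together (correlation -0.13 over 10211 genes), so the replicate number was not treated as a pairing. Repeated sequence was counted as exact 150-base windows in hg38, the window length equal to the read length. The test was also run on simulated counts, the outcome of which is not given here. Alternatives were DESeq2 1.42.0, edgeR's likelihood ratio test, other scalings and filters, length and GC offsets, thinning, a replicate block, summed copies and each library left out. Genes were named if called, among the 2 most expressed of a class, at a class's extreme or nearly identical to another; from the other lists, called genes and SLBP and NPAT. Further members and list genes named with values were chosen after those were seen.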

Additional observations from a re-analysis of the deposited data

How the results depend on the processing

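Of the 27 called histone genes, 21 kept their call under all 16 alternatives chosen at the start and 0 changed sign. H2BC8, H2BC10, H2BC12, H3C11, H4C1 and H4C4 lost theirs under at least 1. Leaving out each library gave 12 to 24 higher and 9 to 19 lower calls, with the lone library of a condition assumed to vary like the other condition, and medians of 0.23 to 0.28 for H2A, -0.23 to -0.19 for H4, 0.02 to 0.13 for H2B, -0.20 to -0.05 for H3, 0.03 to 0.12 for H1 and 0.01 to 0.05 for all histone genes. Scaling by library size alone gave 19 lower calls and medians of -0.026 for all histone genes, 0.020 for H1, 0.19 for H2A and -0.26 for H4. Over all tested genes it gave 514 higher and 1879 lower calls, against 1024 and 758 in the main fit. Length and GC offsets moved the H2A median to 0.27, also with the replicate block, a fit that gave 23 higher and 12 lower calls. The replicate block alone gave 19 higher and 15 lower, and crossed pairing, added after seeing the data, gave 17 and 15. Over all tested genes the block with offsets gave 1204 higher and 936 lower. The block alone gave 1223 and 944 there, and crossed pairing 1254 and 958. Without mitochondrial counts the log2 ratios of class shares were 0.25 for H2A and -0.18 for H4, against 0.20 and -0.23. Summing near-identical copies covered H3C14 with H3C15 and H4C14 with H4C15; H2AC18 with H2AC19 could not be summed.

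Calls in the other lists were few and moved more. Processing genes: 1 higher with library size, DESeq2 or length and GC offsets (also with the replicate block), 6 lower with library size, and 1 to 3 higher and 2 to 4 lower leaving out a library. Chaperones: 2 higher and 4 lower with library size, 3 higher by the likelihood ratio test, 0 lower by DESeq2 (DAXX had no adjusted p there), 2 lower with no or a stricter count filter, the replicate block or length and GC offsets, and 3 to 9 higher and 1 to 3 lower leaving out a library. S phase genes: 1 higher with library size, DESeq2 or the likelihood ratio test, 2 with thinned 2-D libraries, 7 lower with library size, 2 lower by DESeq2 or the likelihood ratio test, and 1 to 8 higher and 2 to 5 lower leaving out a library. The cause was not tested. With 2 libraries a condition and fold changes this small, a gene that missed the threshold is not shown to be unchanged.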
